A study of Mus musculus with 18 samples.

Results

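The flavin-containing monooxygenase genes Fmo1, Fmo2, Fmo4 and Fmo5 were followed in mouse liver through all 9 of their probe sets, as 4 of 17097 genes measured. They were taken by name, with all their probe sets, from the platform annotation, and earlier results of these data were known when they were chosen. Fmo1 and Fmo4 have 1 probe set each, Fmo2 has 4 and Fmo5 has 3. The samples were total RNA from livers of females, 6 to 8 weeks old, hybridised to 18 Affymetrix GeneAtlas MG-430 PM arrays, whose probe sets hold perfect-match probes. In the transgenic model, 5 samples came from wild-type mice and 5 from NPC1L1-Liver-Transgenic mice, which carry the cholesterol transporter NPC1L1 in the liver, all on C57BL/6. In the ASO model, 4 samples came from mice that received an antisense oligonucleotide (ASO) targeting ACAT2, a cholesterol-esterifying enzyme, and 4 from mice given a non-targeting control ASO, all on C57BL/6N. Both models were used to stimulate the loss of cholesterol through the intestinal wall, chronically in the transgenic mice and acutely with the ASO. The promoter that drives the transgene, the ASO dose and the treatment's length are not stated in the labels. Nor do they say that each numbered sample is a separate animal, so p-values cover the spread between samples only, and some of it may be technical.

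Flavin-containing monooxygenases sit in the membrane of the endoplasmic reticulum and oxygenate nitrogen and sulphur atoms of drugs, dietary amines and endogenous thiols. They bind FAD, take electrons from NADPH and hold the oxygenated flavin ready until a substrate arrives. The forms differ in substrate and tissue, and in rodents the liver levels of some of them depend on sex. Fmo1 encodes a form with broad drug substrates that also oxidises hypotaurine to taurine. Fmo2 encodes the form best known from lung. Fmo4 encodes a form with few known substrates. Fmo5 encodes a liver form that inserts oxygen next to ketones and oxygenates few of the classical substrates.

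In the gene table of assembly GRCm38.p6, 3 of the members lie in 1 cluster on chromosome 1, in the order Fmo4 (162793188 to 162816072), Fmo1 (162829561 to 162866610) and Fmo2 (162874317 to 162898758). Fmo5 lies apart, on chromosome 3 (97609938 to 97655287). Levels below are RMA values on the log2 scale, so a difference of 1 is a doubling. The probe set of highest mean stood for its gene, which was 1417429_PM_at for Fmo1, 1422905_PM_s_at for Fmo2, 1425799_PM_at for Fmo4 and 1450332_PM_s_at for Fmo5. Levels of different probe sets are not comparable. Comparisons stay inside a model, since array medians lay at 4.61 to 4.65 for the transgenic model but at 4.38 to 4.40 for the other. The hepatocyte marker list (10 of 10 measured) had mean levels of 11.3 to 11.7 on the arrays. Its genes ran from Pck1, at a mean of 3.65 (above 11.8% of genes), to Alb, which encodes albumin, at 13.6. In their groups, wild type 2, ACAT2 ASO 1 and control ASO 4 deviated most from the group mean, by 0.140, 0.110 and 0.122 per gene on average. They were also the arrays with the highest mean level of 9 macrophage markers in those groups, at 9.74, 9.29 and 8.88. In the transgenic group array 3 deviated most, by 0.109. Its marker mean of 8.60 was not the highest there, which was 8.92 on array 5.

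No member's level in the transgenic model passed the test for a difference. Fmo1 differed by -0.10, Fmo2 by -0.15, Fmo4 by 0.04 and Fmo5 by 0.07 on the log2 scale, transgenic minus wild type. In limma's fit 0 of 4 members passed an adjusted p of 0.05, against 0.228% of all genes (39 of 17097), and 0 of 4 had an unadjusted p under 0.05, against 10.9% of all genes. Of the 9 probe sets 0 passed, against 0.173% of all probe sets, and 0 had an unadjusted p under 0.05, against 10.4% of all probe sets. The groups overlapped in each of the 9, where they did not overlap for 1.84% of all probe sets. The median change of the members was -0.03, beside 0.0058 over all genes.

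Fmo1 read 10.70, 10.62, 10.55, 10.72 and 10.44 on wild-type arrays 1 to 5. On transgenic arrays 1 to 5 it read 10.34, 10.61, 10.62, 10.32 and 10.63. Transgenic 1 and 4 lay below every wild-type array, and the others lay among them. The mean was 10.50 ± 0.16 (SD, n = 5) against 10.61 ± 0.12, and the 95% interval of the change ran from -0.26 to 0.05 (limma adjusted p = 0.672).

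Fmo2 read 8.98, 8.28, 8.96, 9.17 and 8.46 in wild type. In transgenic liver it read 7.87, 9.01, 8.40, 8.81 and 9.04. Transgenic 1 was the lowest of the 10 arrays, and the rest lay within the wild-type range. The change was -0.15 ± 0.27 (SE), with an interval from -0.71 to 0.42 (limma adjusted p = 0.907), and without transgenic 1 it was 0.04. A change of up to 0.42 upwards or 0.71 downwards was thus inside the interval for this gene.

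Fmo4 read 5.82, 5.84, 5.85, 6.00 and 5.88 in wild type. In transgenic liver it read 5.66, 5.80, 6.01, 6.22 and 5.90. The wild-type arrays lay close together (SD 0.0730), and the transgenic arrays lay on both sides of them (SD 0.214). The change was 0.04 ± 0.10 (SE; interval -0.18 to 0.25; limma adjusted p = 0.946), and without transgenic 4 it was -0.04.

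Fmo5 read 11.53, 10.71, 11.18, 11.40 and 11.40 in wild type. In transgenic liver it read 11.28, 11.59, 11.16, 11.43 and 11.10. Wild type 2 was the lowest of the 10 arrays, and the transgenic arrays (11.10 to 11.59) reached past the other wild-type arrays (11.18 to 11.53) at both ends. The change was 0.07 ± 0.13 (SE; interval -0.20 to 0.34; limma adjusted p = 0.912). It was -0.07 without wild type 2 and -0.0026 without transgenic 2, so its direction turned when either array was left out.

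**Figure D1:**
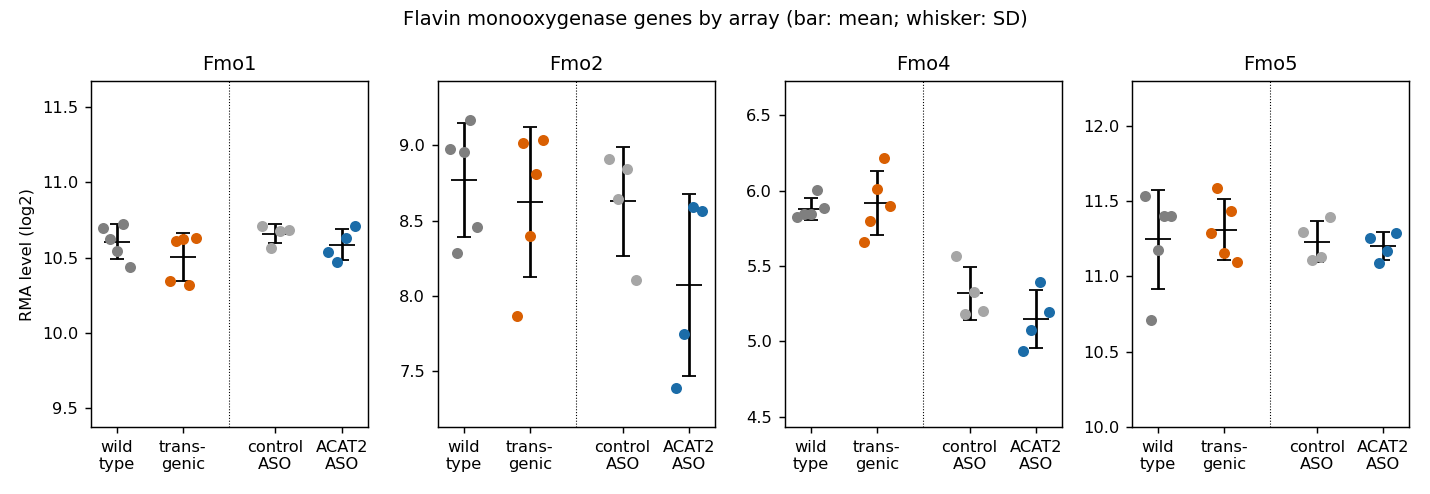
RMA level (log2) of each member on every array, with the group mean (bar) and SD (whisker); n is 5 in each group of the transgenic model and 4 in each of the ASO model, and every panel spans the same range of log2 units. Groups overlap in each panel, Fmo2 spreads most, and in the ACAT2 ASO group 2 Fmo2 arrays lie below all control ASO arrays.

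Fmo2 had the most negative difference in the ASO model, at -0.56 on the log2 scale or 0.680 of the control level, and it did not pass the test. Fmo4 differed by -0.17, Fmo1 by -0.07 and Fmo5 by -0.03. In limma's fit 0 of 4 members passed an adjusted p of 0.05, against 0.597% of all genes (102 of 17097), and 0 of 4 had an unadjusted p under 0.05, against 13.3% of all genes. Of the 9 probe sets 0 passed, against 0.486% of all probe sets, and 2, both of Fmo2, had an unadjusted p under 0.05, against 12.9% of all probe sets. The groups did not overlap in 1 of the 9 probe sets, a probe set of Fmo5, against 9.28% of all probe sets. The median change of the members was -0.12, beside -0.00056 over all genes.

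Fmo2 read 8.91, 8.65, 8.84 and 8.11 on control ASO arrays 1 to 4. On ACAT2 ASO arrays 1 to 4 it read 7.39, 7.75, 8.59 and 8.56. ACAT2 ASO 1 and 2 lay below every control array, while arrays 3 and 4 lay among the controls, so the group fell into a low and a high pair. The means were 8.07 ± 0.60 and 8.63 ± 0.36 (SD, n = 4), and the change was -0.56 ± 0.30 (SE; interval -1.19 to 0.08; limma adjusted p = 0.446). It was -0.33 without ACAT2 ASO 1 and -0.73 without control ASO 4. Without both of these and wild type 2 it was -0.50 (limma adjusted p = 0.568).

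Fmo4 read 5.56, 5.18, 5.33 and 5.20 in the control ASO group. In the ACAT2 ASO group it read 4.94, 5.07, 5.39 and 5.19. As for Fmo2, ACAT2 ASO 1 and 2 were the lowest arrays of the model. The change was -0.17 ± 0.11 (SE; interval -0.41 to 0.07; limma adjusted p = 0.570).

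Fmo1 read 10.71, 10.56, 10.67 and 10.68 in the control ASO group. In the ACAT2 ASO group it read 10.54, 10.47, 10.63 and 10.71. The change was -0.07 ± 0.08 (SE; interval -0.24 to 0.10; limma adjusted p = 0.783), and the groups overlapped. Fmo5 read 11.29, 11.11, 11.13 and 11.39 in the control ASO group. In the ACAT2 ASO group it read 11.26, 11.09, 11.17 and 11.29. The groups covered almost the same range, and the change was -0.03 ± 0.14 (SE; interval -0.33 to 0.27; limma adjusted p = 0.958). For these probe sets of Fmo1, Fmo4 and Fmo5 the intervals leave out a change of 0.5 in either direction in both models, whereas those of Fmo2 do not.

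The effects in the models were compared in the same fit, as the transgenic change minus the ASO change. None of the 4 members passed (0 called), against 1.07% of all genes, and 0 had an unadjusted p under 0.05, against 15.4% of all genes. Of the 9 probe sets 0 passed, against 0.777% of all probe sets, and 0 had an unadjusted p under 0.05, against 15.3%. The difference was 0.41 ± 0.40 (SE) for Fmo2 (limma adjusted p = 0.690), 0.20 for Fmo4 (adjusted p = 0.569), 0.10 for Fmo5 (adjusted p = 0.869) and -0.03 for Fmo1 (adjusted p = 0.932). The interval for Fmo2, from -0.44 to 1.26, covers both equal effects and effects a full log2 unit apart.

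**Figure D2:**
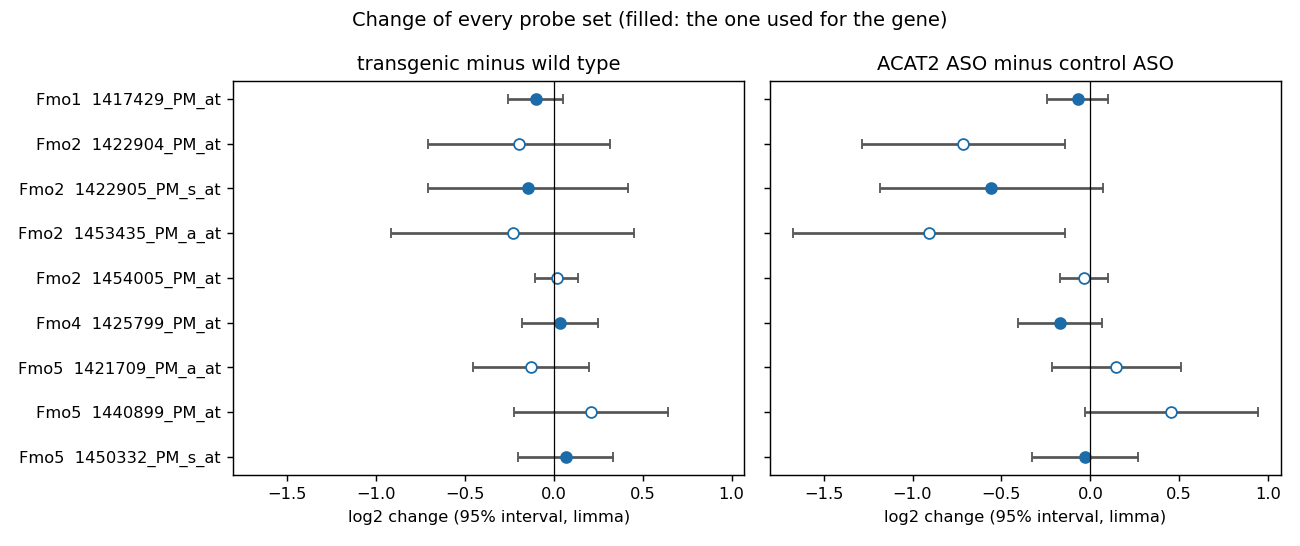
Log2 change of each of the 9 probe sets with its 95% interval from limma, transgenic minus wild type (left) and ACAT2 ASO minus control ASO (right); filled points are the probe sets used for the genes. In the ASO model the intervals of Fmo2 probe sets 1422904_PM_at and 1453435_PM_a_at lie below 0. In both models the changes of the 3 Fmo5 probe sets differ in sign, and all their intervals cross 0.

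The Fmo2 probe sets 1422904_PM_at, 1422905_PM_s_at and 1453435_PM_a_at followed each other from array to array. With the ASOs 1422904_PM_at read 8.98, 8.60, 8.76 and 8.05 in controls and 7.41, 7.48, 8.31 and 8.34 with the ACAT2 ASO. Probe set 1453435_PM_a_at read 8.14, 7.62, 7.84 and 6.95 in controls and 5.94, 6.21, 7.30 and 7.48 with the ACAT2 ASO. In each of these probe sets all 4 ACAT2 ASO arrays lay below the control mean, with arrays 1 and 2 lowest, and the groups overlapped only through control ASO 4. Their changes were -0.71 ± 0.27 (SE; unadjusted p = 0.0174, limma adjusted p = 0.262, exact permutation p = 0.0857) and -0.91 ± 0.36 (unadjusted p = 0.0224, limma adjusted p = 0.290, exact permutation p = 0.114). The 3 probe sets read 1 gene on the same arrays, so they are no independent evidence of a change.

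Probe set 1422904_PM_at in the other model read 8.78, 8.01, 8.68, 8.90 and 8.32 on wild-type arrays 1 to 5, and 7.76, 8.58, 8.02, 8.53 and 8.80 on transgenic arrays 1 to 5. Probe set 1453435_PM_a_at read 7.57, 6.77, 7.40, 7.68 and 6.46 on wild-type arrays 1 to 5, and 6.20, 7.18, 6.83, 7.18 and 7.33 on transgenic arrays 1 to 5. Wild type 2 and 5 and transgenic 1 and 3 were low in both, as they were in 1422905_PM_s_at. The changes were -0.20 (limma adjusted p = 0.840) and -0.23 (limma adjusted p = 0.866), and the groups overlapped.

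Agreement with 1422905_PM_s_at was measured by correlation over arrays, among 11 relations per model. For 1422904_PM_at, Pearson's r was 0.97 over transgenic and wild-type arrays (n = 10; permutation p = 3.0e-05, adjusted 0.00033; Spearman's rho 0.96) and 0.97 in the ASO model (n = 8; exact permutation p = 4.96e-05, adjusted 0.000273; rho 0.98). For 1453435_PM_a_at, r was 0.94 (permutation p = 0.00021, adjusted 0.00077; rho 0.87) and 0.99 (exact permutation p = 4.96e-05, adjusted 0.000273; rho 0.98). Without the 2 arrays farthest from the median, these 4 values lay between 0.90 and 0.95. The other Fmo2 probe set, 1454005_PM_at, did not follow them, with r of 0.23 (permutation p = 0.529) and 0.25 (exact permutation p = 0.574). Its level was 3.52 to 3.84 on all 18 arrays, and its mean of 3.64 lay under the limit of 4.18 that removes the lowest 40% of probe sets. The other 8 member probe sets lay above that limit.

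The array-to-array spread within groups was wide for Fmo2 and narrower for Fmo1. The pooled SD within groups of 1422905_PM_s_at was 0.441 (transgenic model) and 0.498 (ASO model), larger than in 98.5% and 98.6% of all probe sets. For Fmo1 the SD was 0.139 and 0.0859, larger than in 70.1% and 45.8% of all probe sets. For Fmo4 it was 0.160 and 0.184, and for 1450332_PM_s_at of Fmo5 it was 0.271 and 0.115. These are descriptions, with no test between genes.

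**Figure D3:**
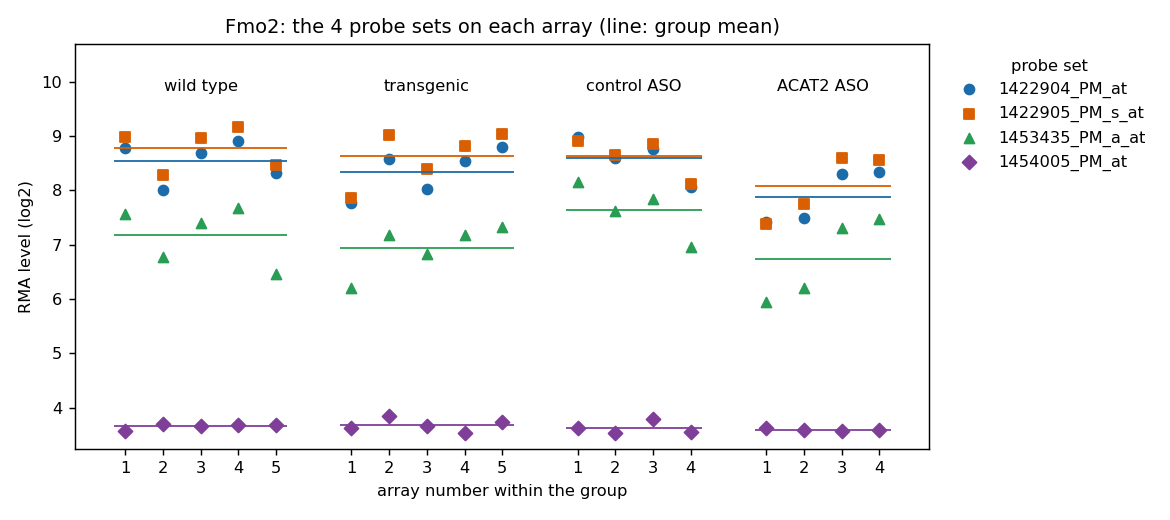
RMA level (log2) of the 4 Fmo2 probe sets on each array, with lines at the group means. Probe sets 1422904_PM_at, 1422905_PM_s_at and 1453435_PM_a_at go up and down together over arrays, with ACAT2 ASO 1 and 2 and transgenic 1 low, and 1454005_PM_at stays between 3.52 and 3.84 throughout.

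The changes of the 3 Fmo5 probe sets differed in sign in both models, but each of their 95% intervals ran from negative to positive values. In the ASO model the only negative change, -0.03 for 1450332_PM_s_at, was 0.023 with array weights. No difference between them passed after adjustment, but in the ASO model the Fmo5 pairs alone could not have passed. Probe set 1440899_PM_at read 11.17, 10.99, 11.06 and 11.13 in the control ASO group and 11.50, 11.20, 11.75 and 11.74 in the ACAT2 ASO group. Every ACAT2 ASO array lay above every control array. The change was 0.46 ± 0.23 (SE; interval -0.03 to 0.94; limma adjusted p = 0.421), or 1.37-fold. The exact permutation p was 0.0286, the smallest that 4 against 4 samples allow. Limma's fit shares 1 spread over both models, and the pooled SD within groups was 0.444 in the transgenic and 0.192 in the ASO model. With the ASO arrays fitted alone, limma's unadjusted p was 0.00386 and its adjusted p 0.165, which did not pass. Probe set 1421709_PM_a_at read 9.47, 9.21, 9.21 and 9.52 in the control ASO group and 9.56, 9.34, 9.47 and 9.63 in the ACAT2 ASO group. Its change was 0.15 (limma adjusted p = 0.787), and 3 of 4 ACAT2 ASO arrays lay above the control mean.

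Differences between 2 probe sets on the same array leave out what an array shares across them. They were tested for all 9 pairs of probe sets of a gene, after the values had been seen. The difference 1440899_PM_at minus 1450332_PM_s_at was 0.35 ± 0.21 (SD, n = 4) with the ACAT2 ASO and -0.14 ± 0.08 in controls, a shift of 0.49 with groups that did not overlap (exact permutation p = 0.0286, adjusted over the 9 pairs 0.0857). The difference 1421709_PM_a_at minus 1450332_PM_s_at was -1.70 ± 0.04 against -1.88 ± 0.04, a shift of 0.18 (exact permutation p = 0.0286, adjusted 0.0857), again with no overlap. The third Fmo5 pair, 1421709_PM_a_at minus 1440899_PM_at, shifted by -0.31 (exact permutation p = 0.0286, adjusted 0.0857). With 4 samples a group these are the smallest p-values possible, and none passed after adjustment. Over 9 pairs the Fmo5 pairs alone cannot pass at that smallest p, so the adjusted test could not decide whether these probe sets shifted apart. Leaving out each array in turn, the shift of 1440899_PM_at against 1450332_PM_s_at stayed between 0.41 and 0.56.

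Probe set 1440899_PM_at read 10.68, 9.48, 9.98, 10.78 and 10.58 on wild-type arrays 1 to 5, and 10.49, 10.72, 10.01, 10.71 and 10.63 on transgenic arrays 1 to 5. Probe set 1421709_PM_a_at read 9.86, 8.94, 9.42, 9.87 and 9.54 on wild-type arrays 1 to 5, and 9.46, 9.78, 9.09, 9.46 and 9.20 on transgenic arrays 1 to 5. Wild type 2 was lowest in both, as in 1450332_PM_s_at. The changes were 0.21 (limma adjusted p = 0.789) and -0.13 (limma adjusted p = 0.837). Within arrays, 1421709_PM_a_at minus 1450332_PM_s_at shifted by -0.19 (exact permutation p = 0.0238, adjusted 0.214), opposite in sign to the shift in the ASO model, and 1440899_PM_at minus 1450332_PM_s_at shifted by 0.14 (exact permutation p = 0.405). The remaining pair, 1421709_PM_a_at minus 1440899_PM_at, shifted by -0.34 (exact permutation p = 0.0476, adjusted 0.214; -0.40 to -0.26 when each array was left out in turn), with the same sign as the shift of -0.31 in the ASO model.

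Over arrays, 1450332_PM_s_at followed both other Fmo5 probe sets in the transgenic model. Pearson's r was 0.89 with 1421709_PM_a_at (n = 10; permutation p = 0.0002, adjusted 0.00077; rho 0.88) and 0.86 with 1440899_PM_at (permutation p = 0.00379, adjusted 0.0104; rho 0.78), and 0.82 and 0.88 without wild type 2 and transgenic 5. With the ASO groups r was 0.77 with 1421709_PM_a_at (n = 8; exact permutation p = 0.0322, adjusted 0.0886; rho 0.74) and 0.20 with 1440899_PM_at (exact permutation p = 0.628; rho 0.17). Without ACAT2 ASO 2 and control ASO 4, r was 0.88 and 0.48. Group means were not subtracted here, so a difference between groups in 1 of the probe sets enters r. Between the ASO groups 1440899_PM_at differed by 0.46 and 1450332_PM_s_at by -0.03. The low r therefore does not show that they failed to follow each other within groups, which was not tested. The array maker's suffix "_a_at" stands for probes shared by transcripts of 1 gene and "_s_at" for probes that may be shared with transcripts of other genes. Which Fmo5 transcripts each probe set reads was not examined.

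Probe sets at the 5′ and 3′ ends of 2 control transcripts show how far RNA quality differed between groups. The 3′ minus 5′ difference of Actb was 1.05 ± 0.11 with the ACAT2 ASO and 1.05 ± 0.05 in controls (exact permutation p = 0.971, n = 4). For Gapdh the exact permutation p was 0.857. Between transgenic and wild type the Actb difference was 1.02 ± 0.17 against 0.91 ± 0.08 (exact permutation p = 0.254, n = 5).

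**Figure D4:**
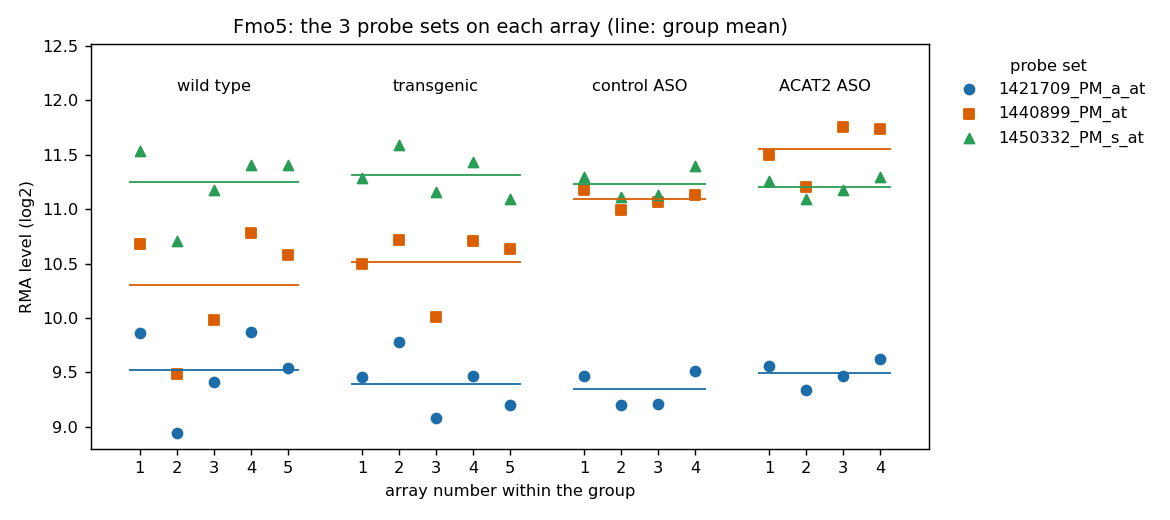
RMA level (log2) of the 3 Fmo5 probe sets on each array, with lines at the group means. From control ASO to ACAT2 ASO the line of 1440899_PM_at is higher by 0.46, that of 1421709_PM_a_at by 0.15, and that of 1450332_PM_s_at lies 0.03 lower.

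Among the members, Fmo2 and Fmo4 went together over the arrays of the ASO model. Pearson's r was 0.86 (n = 8; exact permutation p = 0.00503, adjusted over 11 relations 0.0185) and Spearman's rho 0.79 (exact permutation p = 0.0279, adjusted 0.101). Without ACAT2 ASO 1 and control ASO 1, r was 0.72. Over transgenic and wild-type arrays r was 0.37 (n = 10; permutation p = 0.299), and -0.09 without transgenic 1 and 4. The difference between the models was not tested. Fmo1 and Fmo2 had r of 0.54 with transgenic and wild type (permutation p = 0.105) and 0.69 with the ASO groups (exact permutation p = 0.0554), the latter 0.03 without ACAT2 ASO 1 and 2. Fmo5 and Fmo2 had r of 0.40 (permutation p = 0.254) and -0.07 (exact permutation p = 0.871). Fmo1 and Fmo4 had r of -0.09 (permutation p = 0.814) and 0.68 (exact permutation p = 0.0663). Fmo1 and Fmo5 had r of -0.11 (permutation p = 0.775) and 0.62 (exact permutation p = 0.107). For Fmo1 and Fmo5 in the ASO model rho was 0.74 (exact permutation p = 0.0458, adjusted 0.101).

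The windows before the start sites are shown because Fmo2 and Fmo4, of the chromosome 1 cluster, varied together in the ASO model. Fmo5, on another chromosome, had r of -0.07 and 0.10 with them there. Fmo1, also of the cluster, had r of 0.62 with Fmo5 in that model, near its 0.69 with Fmo2 and 0.68 with Fmo4. None of these correlations of Fmo1 passed (exact permutation, adjusted p = 0.168, 0.122 and 0.122). Without the 2 arrays farthest from the median in each pair, they were 0.40, 0.03 and 0.53. Whether the pairs divide by chromosome was not tested. RefSeq windows of 250 bases (GRCm38.p6) were found for 3 of 4 members, and Fmo1 was not among them. Capitals mark matches to the letters of the motifs searched on both strands, none of which overlap here. The core TATAAA stands in 12.4% of all 32851 windows of that length. The box CCAAT stands in 33.8% of them. The letters GTTAAT, part of an HNF1 site, stand in 6.43%, and AGGTCA, part of a nuclear receptor site, stands in 14%.
Fmo2, chr1:162898759-162899008, minus strand: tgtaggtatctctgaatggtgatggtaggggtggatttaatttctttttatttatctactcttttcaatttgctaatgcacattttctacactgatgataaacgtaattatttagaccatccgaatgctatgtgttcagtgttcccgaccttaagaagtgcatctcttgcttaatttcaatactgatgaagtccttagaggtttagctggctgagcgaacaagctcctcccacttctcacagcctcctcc
Fmo4, chr1:162812550-162812799, minus strand: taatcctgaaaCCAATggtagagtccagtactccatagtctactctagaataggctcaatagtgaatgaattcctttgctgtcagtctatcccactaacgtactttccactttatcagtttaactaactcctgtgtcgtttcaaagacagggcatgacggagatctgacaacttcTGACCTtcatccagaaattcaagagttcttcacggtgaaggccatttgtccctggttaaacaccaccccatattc
Fmo5, chr3:97628769-97629018, plus strand: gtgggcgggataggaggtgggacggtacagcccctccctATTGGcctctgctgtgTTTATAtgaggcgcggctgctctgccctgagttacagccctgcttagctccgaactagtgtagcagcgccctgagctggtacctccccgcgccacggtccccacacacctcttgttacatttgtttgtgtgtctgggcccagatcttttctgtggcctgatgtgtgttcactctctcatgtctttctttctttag
The Fmo4 and Fmo5 windows lie inside the spans given for these genes in the gene table. The Fmo2 window held 0 of these motifs and had a GC content of 39.6%. A second Fmo2 window, chr1:162898494-162898743, held AGGTCA on the gene's strand, beginning 9 bases before the start. The Fmo4 window (GC 42.4%) held CCAAT on the gene's strand 239 bases before the start and AGGTCA on the opposite strand 75 bases before it. The Fmo5 window (GC 56.0%) held CCAAT and TATAAA on the opposite strand, 211 and 195 bases before the start. A match describes the letters only. AGGTCA stood in the Fmo4 window and in the second Fmo2 window, and not in the Fmo2 window printed.

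Fmo2 in the ASO model and Fmo5 in the transgenic model varied against the macrophage markers; a difference between the models was not tested. The 9 macrophage markers, among them Clec4f and Vsig4 of Kupffer cells, had a mean level of 7.46, 7.52, 7.47 and 8.88 on control ASO arrays 1 to 4 and 9.29, 8.28, 7.43 and 7.99 on ACAT2 ASO arrays 1 to 4. The arrays with the highest marker means in each group, control ASO 4 and ACAT2 ASO 1, had the lowest Fmo2 of their group. Fmo2 and the marker mean had r of -0.89 in the ASO model (n = 8; exact permutation p = 0.00689, adjusted over 8 relations 0.0276; rho -0.83, exact permutation p = 0.0154, adjusted 0.0581), and -0.87 without these 2 arrays. For Fmo2 in the transgenic model r was -0.28 (n = 10; permutation p = 0.432), and 0.16 without wild type 1 and 2. For Fmo4 it was -0.77 in the ASO model (exact permutation p = 0.0253, adjusted 0.0675). After each group's mean was subtracted, r for Fmo2 in the ASO model was -0.91 (n = 8; exact permutation within groups p = 0.00174, the smallest possible, adjusted 0.0139; rho -0.83, exact permutation p = 0.00694, adjusted 0.0556), and -0.77 without the same 2 arrays. These relations were chosen after the values had been seen, and the adjustment does not cover the lists that were not tried.

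For Fmo5, read by 1450332_PM_s_at, the relation with the macrophage markers lay in the transgenic model. It too was chosen after the values had been seen, and the other Fmo5 probe sets were not compared with the markers. Wild type 2, with the highest marker mean (9.74), had the lowest Fmo5, and wild type 1, with the lowest (7.93), was second only to transgenic 2. Pearson's r was -0.90 (n = 10; permutation p = 0.00101, adjusted 0.00808; rho -0.75, permutation p = 0.0173, adjusted 0.139), and -0.69 without these 2 arrays. With group means subtracted r was -0.90 (exact permutation within groups p = 0.00417, adjusted 0.0333; rho -0.92, exact permutation p = 0.00153, adjusted 0.0122), and -0.71 without them. With the ASO groups r was 0.46 (n = 8; exact permutation p = 0.253), and -0.14 without ACAT2 ASO 1 and control ASO 4. All 9 macrophage markers had a change above 0 with the ACAT2 ASO (median 0.41), against 49.7% of all genes, and 0 of 9 passed the test. The marker means of the groups overlapped (7.43 to 9.29 against 7.46 to 8.88). ACAT2 ASO 1 had the mean of 9.29, and the other arrays of its group lay at 7.43 to 8.28. Only ACAT2 ASO 1 thus lay above the highest control array (8.88). The median change without ACAT2 ASO 1 was not computed. In bulk liver, more cells of a type and more RNA per cell cannot be told apart. The part of the macrophage markers in the values of Fmo2 and Fmo5 was not tested.

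Fmo2 also varied with a list of genes known to be higher in female than in male mouse liver. Their mean (11 of 14 measured) was 9.06, 9.01, 8.65 and 8.18 on control ASO arrays 1 to 4 and 7.28, 8.44, 8.50 and 8.65 on ACAT2 ASO arrays 1 to 4. Control ASO 4 and ACAT2 ASO 1 were again the lowest of their groups. Fmo2 and this mean had r of 0.86 in the ASO model (n = 8; exact permutation p = 0.00449, adjusted over 8 relations 0.0276; rho 0.93, exact permutation p = 0.00223, adjusted 0.0179), and 0.61 without ACAT2 ASO 1 and control ASO 1. With group means subtracted r was 0.82 (exact permutation within groups p = 0.0174, adjusted 0.0694) and 0.28 without ACAT2 ASO 1 and control ASO 4, so it rested on those arrays. With transgenic and wild type r was 0.24 (n = 10; permutation p = 0.501), and 0.66 without wild type 5 and transgenic 3. Of the 11 genes 0 had a change above 0 with the ACAT2 ASO (median -0.32), against 49.7% of all genes. An unadjusted p under 0.05 was seen for 1, against 13.3% of all genes, and 0 passed. ACAT2 ASO 1, at 7.28, lay below the other arrays of its group, at 8.44 to 8.65. It alone lay below the lowest control array (8.18). The median change without ACAT2 ASO 1 was not computed. Trim24, a transcriptional cofactor, had the smallest p, with a change of -0.72 (limma adjusted p = 0.241). This relation too was chosen after the values had been seen. Its adjustment over 8 relations covers this list and the macrophage markers, not the other lists open to choice. The part of this list in the values of Fmo2 was not tested.

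The genes whose levels were most like those of the members over the 18 arrays, after each model's mean was subtracted, were taken from 10254 genes and are a description without a test. For Fmo2 they were Snrk, a kinase related to AMPK (r = 0.85), Angel2 (0.85) and Akr1c19, an aldo-keto reductase (0.85). For Fmo4 they were Pdxk, pyridoxal kinase (0.81), Snrk (0.80) and Insr, the insulin receptor (0.78). Snrk thus stood among the 3 most alike genes of both. For Fmo5 they were G6pc, the glucose-6-phosphatase catalytic subunit (0.86), Nr1i2, the xenobiotic receptor PXR (0.84), and Tns1, tensin 1 (0.82). The Fmo5 values rested on the transgenic model, where r was 0.92 for each of the 3, against 0.30, 0.53 and 0.41 in the ASO model. For Fmo1 they were Sema4b, a semaphorin (0.79), Pigg (0.73) and Phf14 (0.73), and for Sema4b r was 0.89 there and 0.16 in the ASO model. None of these genes passed the test in either comparison.

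The genes around the family's chemistry were described by 14 lists, of whose 140 genes 121 were measured. Between transgenic and wild type 0 of 121 passed limma's test, and in the ASO model 0 of 121 passed, beside the 0.228% and 0.597% of all genes called. An unadjusted p under 0.05 was seen for 11 and 12 of the 121, beside 10.9% and 13.3% of all genes. Median changes are given with transgenic first and ASO second, beside 0.0058 and -0.00056 over all genes.

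Other FAD-dependent monooxygenases (5 of 6 measured) had medians of 0.08 and -0.0060. Sqle, the squalene epoxidase of cholesterol synthesis, had the smallest p, at -0.88 ± 0.21 (SE) in transgenic liver (limma adjusted p = 0.0880), and Kmo, kynurenine monooxygenase, was at 0.14 (adjusted p = 0.524). Genes of electron donors and NADPH supply (8 of 11) had medians of 0.05 and -0.0026, with Me1, malic enzyme, at 0.43 in transgenic liver (limma adjusted p = 0.409). Genes of riboflavin and FAD synthesis (3 of 5) had medians of 0.12 and -0.01. Rfk, riboflavin kinase, was at 0.12 (limma adjusted p = 0.479) and -0.16 (adjusted p = 0.311).

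Among genes of the substrates, choline and methylamine metabolism (10 of 11) had medians of 0.03 and -0.10. In the ASO model 1 of 10 changes was above 0, against 49.7% of all genes. That gene was Slc44a1, a choline transporter, at 0.39 (limma adjusted p = 0.111). Dmgdh, dimethylglycine dehydrogenase, was at -0.29 (limma adjusted p = 0.305). Taurine and cysteine oxidation (9 of 9) had medians of 0.04 and 0.03. Baat, which joins taurine or glycine to bile acids, was at 0.28 ± 0.06 (SE) in transgenic liver (limma adjusted p = 0.0813) and at -0.20 ± 0.07 with the ACAT2 ASO (adjusted p = 0.204). Other microsomal and amine oxidases (8 of 10) had medians of 0.03 and 0.07, with Cyp3a11, a cytochrome P450 of drug metabolism, at 0.17 in the ASO model (limma adjusted p = 0.155) and Aox1, aldehyde oxidase, at -0.29 (adjusted p = 0.289).

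Transcription factors described for liver genes of the family (12 of 13) had medians of -0.01 and -0.07. Nfe2l2, the oxidative stress factor NRF2, was at -0.31 in transgenic liver (limma adjusted p = 0.148). Nr1i3, the xenobiotic receptor CAR, was at -0.57 in the ASO model (limma adjusted p = 0.111). It was called without control ASO 4, at -0.74 (limma adjusted p = 0.0169), and with array weights, at -0.63 (adjusted p = 0.0227). Without wild type 2, ACAT2 ASO 1 and control ASO 4 it was also called, at -0.68 (adjusted p = 0.0338). With array weights 465 of 17097 genes were called in the ASO model, against 102 in the main fit. Male-predominant genes (10 of 13) had medians of -0.03 and 0.09, and female-predominant genes 0.09 and -0.32. Markers of hepatocytes (10 of 10), stellate cells and fibroblasts (11 of 11) and endothelial cells (10 of 10) had medians between -0.04 and 0.01. Cholangiocyte markers (5 of 8) had medians of -0.05 and -0.17, with Krt19, a keratin, at -1.12 in the ASO model (limma adjusted p = 0.170).

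**Figure D5:**
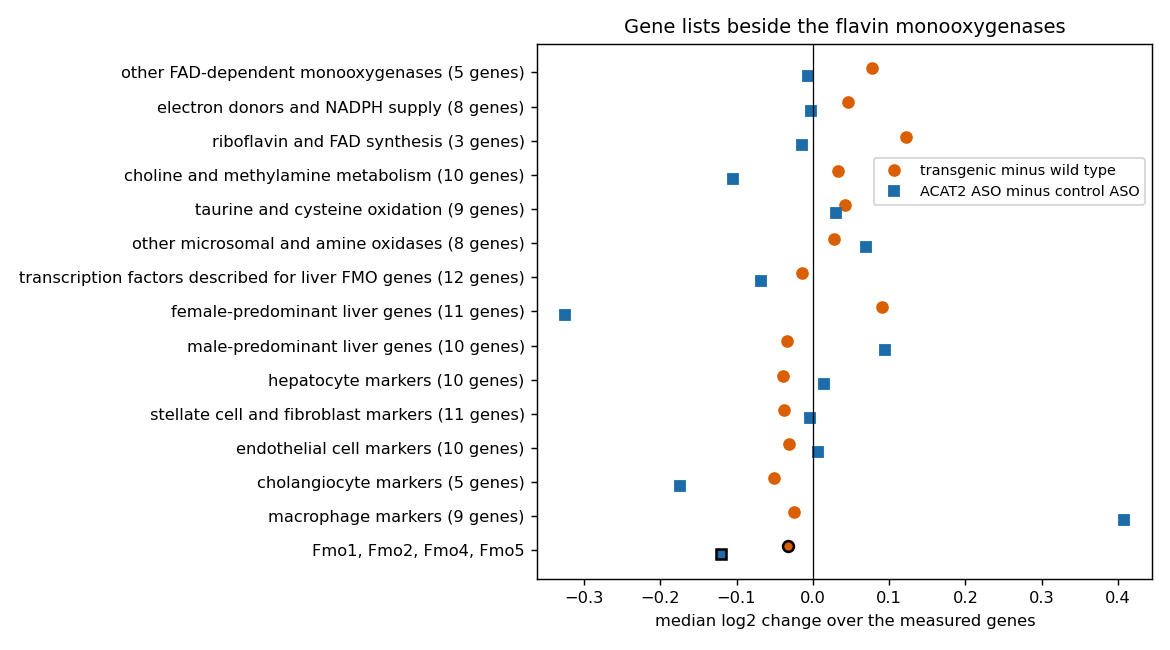
Median log2 change of each gene list (number of measured genes in brackets) and of the 4 members (outlined), transgenic minus wild type (circles) and ACAT2 ASO minus control ASO (squares). In the ASO model the macrophage markers lie farthest right at 0.41 and the female-predominant genes farthest left at -0.32, with the members at -0.12.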

How the data were processed

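Expression was measured in 18 liver samples, and groups were taken from the sample titles. The authors deposited log2 levels per probe set, which per the submitters' processing notes come from RMA. Which software ran RMA is not given in the sources used here. Array medians differ between the models, so each may have had its own RMA run. The log2 scale was read from the range of the values. Of 45141 probe sets, 104 controls were left out, and no 2 arrays held identical values (0 pairs). Of the rest, 28898 had 1 symbol in the platform annotation, 551 had several, and 15588 had no symbol. All 4 members matched the gene table of GRCm38.p6.

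Differences were tested with limma 3.58.1 (R 4.3.3; lmFit and eBayes) in 1 fit with a mean per group over 18 arrays, two-sided, with Benjamini-Hochberg adjustment over 17097 genes or over 45037 probe sets and a threshold of 0.05. Single probe sets and within-array differences were tested by two-sided exact permutation of the difference in means, and correlations by permutation (scipy 1.17.1). The smallest exact p is 0.00794 for 5 against 5 samples and 0.0286 for 4 against 4. The procedure was tested on simulated data. Low values were not filtered. The number of arrays limits the precision.

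The members, the gene lists and the tests were chosen with earlier results of these data known. Named genes are the members, up to 2 genes per list and comparison with the smallest p, the 3 genes most like each member above the lowest 40% of levels, and the nearest measured genes on each side. The text gives these list genes in part, picked after their values were seen. Alternatives covered the filter on low values, array scaling, the choice of probe set, the arrays fitted, the variance model, array weights, a replicate block and left-out arrays. Same-numbered samples mostly did not deviate together (correlations from -0.48 to 0.17 in the transgenic model and from -0.48 to 0.47 in the ASO model). Only ACAT2 ASO 3, at 0.47, correlated best with its own number. Samples were not paired. The ASO's target transcript is not analysed here. Figures were drawn with matplotlib 3.10.9.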

Additional observations from a re-analysis of the deposited data

Results flagged for a closer look

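One value stood apart within its group. In the wild-type group, Fmo2 probe set 1454005_PM_at read 3.58 on array 1, and the nearest of the other arrays read 3.67. The gap was 0.766 of the group's range, above Dixon's critical value for 5 samples. The probe set lies under the limit of the filter on low values. Of 36 groups of member values checked, chance alone marks about 1 in 20.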

How the results depend on the processing

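The count of members passing the test was 0 of 4 in each comparison under every alternative run, and that of member probe sets was 0. Over all alternatives the lowest limma adjusted p of a member was 0.328, for Fmo2 in the ASO model with the mean of its probe sets. Among the probe sets not used for a gene it was 0.165, for 1440899_PM_at in the ASO model with its own arrays only. Among gene-level changes 244 values kept their sign and 16 did not, and among those of the other probe sets 288 kept it and 4 did not. With the mean of its probe sets, Fmo5 was at 0.19 in the ASO model and at -0.14 for the difference of the effects. With array weights Fmo5 in the ASO model was at 0.023. Without wild type 2, ACAT2 ASO 1 and control ASO 4, Fmo5 was at -0.068 in the transgenic model, 0.0055 with the ASOs and -0.074 for the difference. Leaving out each array in turn, the difference of the effects ran from -0.073 to 0.015 for Fmo1 and from -0.038 to 0.17 for Fmo5. Between transgenic and wild type Fmo2 ran from -0.27 to 0.045, Fmo4 from -0.041 to 0.10 and Fmo5 from -0.068 to 0.14, and in the ASO model Fmo5 ran from -0.070 to 0.024. Probe set 1454005_PM_at ran from -0.025 to 0.054 in the transgenic model, from -0.071 to 0.020 with the ASOs and from -0.0033 to 0.091 for the difference. Genes of the 14 lists called in the ASO model numbered 4 with array weights (Aox1, Cyp3a11, Nr1i3 and Slc44a1), against 0. These were 4 of 121 list genes, beside 465 of all 17097 genes with array weights and 102 in the main fit. Without the 3 arrays named above 2 were called (Aox1 and Nr1i3). Leaving out each array in turn, called list genes numbered 0 to 1 in each comparison, the 1 being Sqle without wild type 5 and Nr1i3 without control ASO 4. Without wild type 5, 58 of all genes were called in the transgenic model, against 39. The cause of these shifts was not tested. With the replicate number as a block, 0 members were called, Fmo2 in the ASO model stayed at -0.56 (limma adjusted p = 0.578), and calls over all genes were 2, 18 and 12, against 39, 102 and 183. Of the arrays, 0 of 5 in the transgenic model and 1 of 4 in the ASO model correlated best with their own number. A fit on a comparison's own arrays was not run for the difference of the effects, and 1454005_PM_at has no value under the filter on low values.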

Other observations

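The nearest measured genes beside the chromosome 1 cluster were Vamp4 and Prrc2c on one side and Mroh9 and Prrx1 on the other. With the transgene their changes were -0.04 for Vamp4, -0.04 for Prrc2c, 0.0069 for Mroh9 and -0.12 for Prrx1. With the ACAT2 ASO they were -0.08, -0.04, -0.06 and 0.17 in the same order, and none passed limma's test (lowest adjusted p = 0.150, for Prrx1). Beside Fmo5 lay Acp6 and Bcl9 on one side and Prkab2, a subunit of AMPK, and Pde4dip on the other. None of these passed either (lowest limma adjusted p = 0.128, for Acp6 with the ACAT2 ASO, at -0.28).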
